A study of Rattus norvegicus with 6 samples.

Results

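Catalase, the superoxide dismutases and the peroxidases that remove hydrogen peroxide or lipid peroxides were followed as 10 genes, Cat, Sod1, Sod2, Sod3, Gpx1, Gpx3, Gpx4, Prdx1, Prdx3 and Prdx6, chosen by gene symbol. They were covered by 11 probes (Gpx4 has 2, each other gene 1) at 29 spots of each array, of 19958 genes, 30367 probes and 58717 spots in all. The study hybridised 6 rat RNA samples, 1 per group, to one-colour Agilent arrays on 1 slide. Its groups were FAO cells, a rat liver cell line, given 100 µM of the iron chelator deferoxamine for 24 h; untreated FAO cells, kept for 24 h with 0 µM deferoxamine; liver and kidney of Wistar rats that had eaten an AIN-93G diet lacking iron during 4 weeks; and liver and kidney of Wistar rats on the iron-sufficient AIN-93G diet for the same 4 weeks. RNA of 3 cultures or of 6 animals was mixed before each array, so no spread between cultures or animals can be had and no test was possible; the age of the animals was not given in the labels, whose protocols call them mice.

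Superoxide dismutases turn superoxide into hydrogen peroxide: Sod1 is the copper and zinc enzyme of the cytosol, Sod2 the manganese enzyme of mitochondria and Sod3 the copper and zinc enzyme outside cells. Hydrogen peroxide is then broken down by catalase, a heme enzyme of peroxisomes, by the glutathione peroxidases, of which Gpx1, Gpx3 and Gpx4 carry selenocysteine, and by the thiol-based peroxiredoxins. Liver is known for its high catalase and Gpx1, and kidney as a main source of the Gpx3 in plasma. Catalase is thus the only enzyme among the 10 that holds iron itself.

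The windows around the transcription starts of 3 members are shown because Gpx1 had the largest of the 10 differences in iron-free liver, Gpx3 the largest between liver and kidney, and Cat encodes the iron-holding enzyme. RefSeq promoter sequence on GRCr8, from 250 bases before to 50 after a start, was matched by symbol for 8 of the 10 genes, all but Sod3 and Prdx6. In the Gpx1 window (chr8:117905212-117905511, + strand) and the Gpx3 window (chr10:39529085-39529384, + strand), capitals mark ACGTG or GCGTG on either strand, the core letters that hypoxia-inducible factors are known to bind. In the Cat window (chr3:110329477-110329776, - strand), capitals mark CCAAT on either strand, a motif added after the window had been read.
Gpx1: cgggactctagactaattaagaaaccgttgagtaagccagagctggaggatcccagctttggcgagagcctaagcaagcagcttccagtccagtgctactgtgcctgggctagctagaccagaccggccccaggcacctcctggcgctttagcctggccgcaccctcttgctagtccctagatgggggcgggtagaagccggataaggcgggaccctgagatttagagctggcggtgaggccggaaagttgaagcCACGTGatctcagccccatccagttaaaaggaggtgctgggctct
Gpx3: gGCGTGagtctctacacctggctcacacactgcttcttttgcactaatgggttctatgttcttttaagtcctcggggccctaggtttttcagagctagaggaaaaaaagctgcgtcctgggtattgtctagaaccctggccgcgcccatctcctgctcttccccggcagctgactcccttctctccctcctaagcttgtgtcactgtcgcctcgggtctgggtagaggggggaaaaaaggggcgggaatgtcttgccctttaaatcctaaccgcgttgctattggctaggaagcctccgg
Cat: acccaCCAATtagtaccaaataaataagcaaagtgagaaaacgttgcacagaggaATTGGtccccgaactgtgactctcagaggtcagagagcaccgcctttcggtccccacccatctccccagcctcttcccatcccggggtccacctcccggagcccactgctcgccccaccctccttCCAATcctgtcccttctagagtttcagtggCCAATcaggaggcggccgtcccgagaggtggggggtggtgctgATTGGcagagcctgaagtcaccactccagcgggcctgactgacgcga
The Gpx1 window held 2 matches, which are the same CACGTG read on each strand, the Gpx3 window 1 and the Cat window 0. A match was present in 7 of the 8 genes, all but Cat, where any window of a gene counted. Gpx4 had more than 1 window, each with a match. Counted by window and not by gene, 41.6% of all 33469 promoter windows of the same length held a match. The letters TGACNNNGC, the core of the antioxidant response element, were found on either strand in Sod2 and Prdx1 only among the 8 genes, and in 12.1% of all windows. Cat held 5 CCAAT matches, Sod1 and Gpx3 held 1 each, and Gpx4 held up to 3 in a window. Sod2, Gpx1, Prdx1 and Prdx3 held none, and 37.5% of all windows held at least 1. These matches describe letters, not bound sites.

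Labelled tissues carried their defining transcripts. Albumin had a scaled signal of 43497 in deferoxamine FAO, 41323 in untreated FAO, 142826 in iron-free liver and 86391 in iron-sufficient liver, and was not well above background in either kidney. Uromodulin of the kidney tubule had 164908 in iron-free kidney and 200247 in iron-sufficient kidney and was not well above background elsewhere. The transferrin receptor Tfrc, whose mRNA is stabilised when iron is low, was higher in each iron-deprived sample: 11242 in deferoxamine FAO against 3921 in untreated FAO, 18779 in iron-free liver against 1431 in iron-sufficient liver, and 7819 in iron-free kidney against 981 in iron-sufficient kidney. Between 37.7% and 48.8% of probes were well above background. Each array was divided into 264 blocks of spots, of which some were noisy, meaning that repeated spots of 1 probe disagreed there: 39 for iron-sufficient liver, 23 for iron-sufficient kidney, 15 for deferoxamine FAO and 2 to 5 for the remaining 3.

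Scaled signal is the deposited background-subtracted intensity, brought to a common 75th percentile, taken over those 9091 probes that every array detected clearly above its background. Differences are on the log2 scale with a spot standard error, which covers the disagreement between spots on an array and nothing of the biology. This error is pooled over probes of like signal and is not the probe's own. A probe's own spots can disagree more, as for Sod2 in iron-sufficient kidney, or less, as for Sod3 in FAO cells. A difference was called at 2-fold, a log2 size of 1. Signals of different probes were not set against each other, and with bulk RNA, fewer cells of a type and less RNA per cell cannot be told apart.

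**Figure D1:**
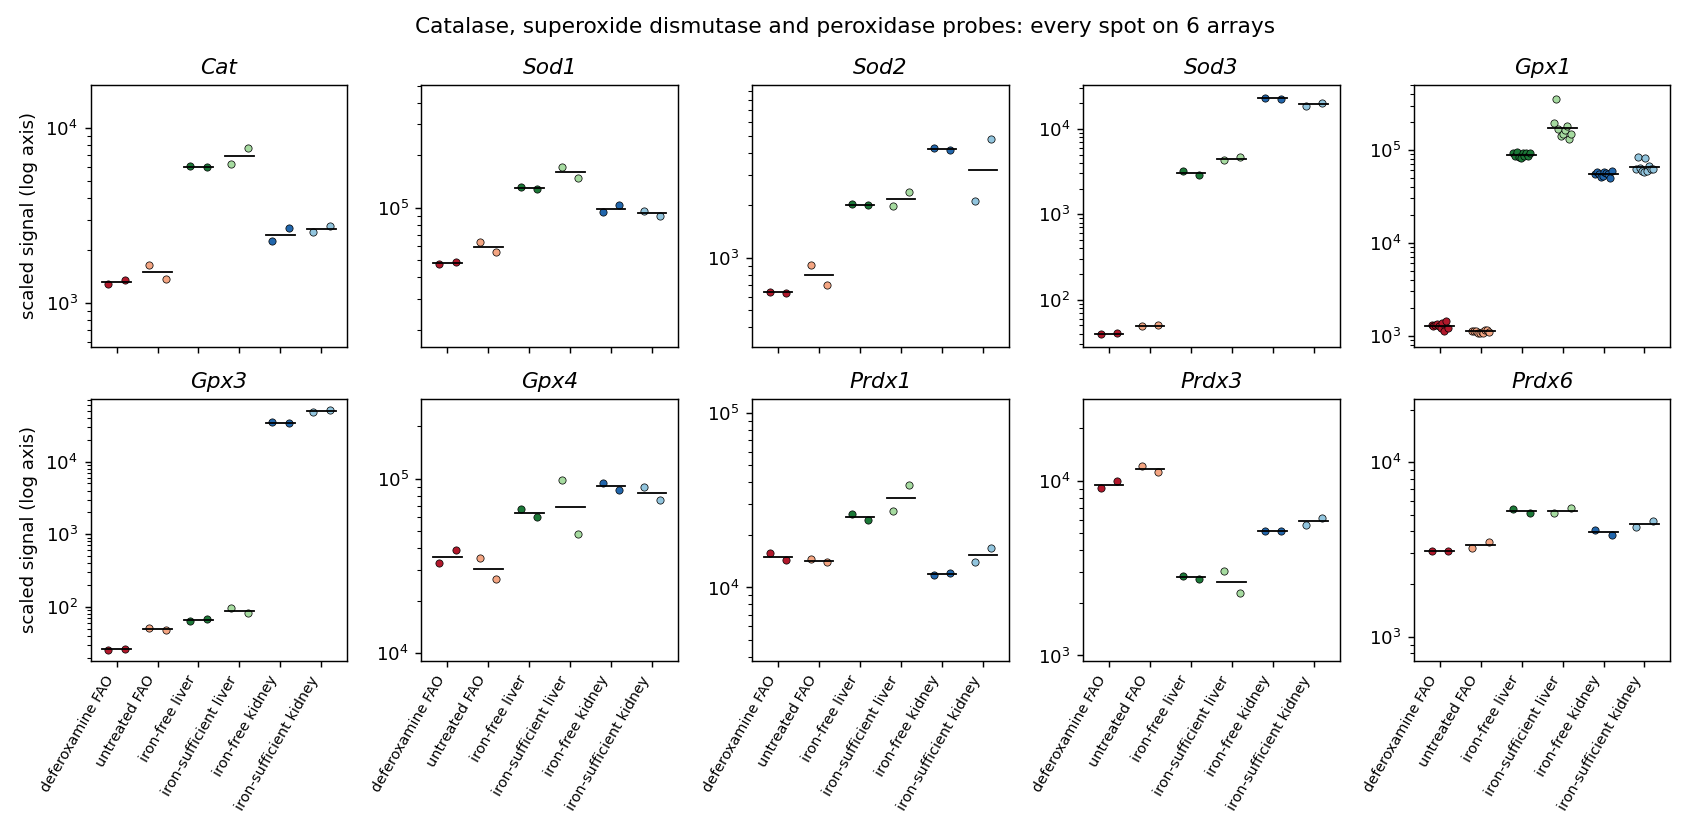
Scaled signal (log axis) of each spot of the brightest probe of the 10 genes on the 6 arrays, with the iron-deprived sample left of its control; the bar is the mean of the log2 values. Gpx1, Gpx3 and Sod3 span 157-fold to 1912-fold over the arrays, while Prdx6 spans 1.71-fold.

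Superoxide dismutases come first. Sod1 spots read 47298 and 48942 in deferoxamine FAO against 63252 and 56018 in untreated FAO. They read 131148 and 127878 in iron-free liver against 170179 and 148543 in iron-sufficient liver, and 94190 and 103455 in iron-free kidney against 96115 and 89740 in iron-sufficient kidney. The spots separated in FAO cells and in liver, with the iron-deprived sample lower, and overlapped in kidney. The differences were -0.31 ± 0.15 in FAO, -0.30 ± 0.27 in liver and 0.09 ± 0.20 in kidney (log2 ± spot SE). The liver sign turned to 0.28 when arrays were scaled to the median of their detected probes. In FAO the difference ran from -0.72 to -0.03 under the other settings.

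Sod2, the mitochondrial enzyme, gave 642 and 628 in deferoxamine FAO against 913 and 699 in untreated FAO, and these spots did not overlap. In liver it gave 2026 and 2007 with the iron-free diet against 1988 and 2375 with the iron-sufficient diet, which overlap. In kidney the iron-free spots, 4267 and 4157, lay between the iron-sufficient spots, 2121 and 4827. The differences were -0.33 ± 0.26 in FAO, -0.11 ± 0.27 in liver and 0.40 ± 0.25 in kidney. The kidney value rested on the lower of 2 spots that differed 2.28-fold on the iron-sufficient array, and the liver sign turned to 0.47 under the median scaling.

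Sod3, the secreted enzyme, showed opposite signs in the 2 tissues. Its spots gave 3199 and 2882 in iron-free liver against 4349 and 4616 in iron-sufficient liver. In kidney they gave 23125 and 22569 with the iron-free diet against 18471 and 20122 with the iron-sufficient diet. In neither tissue did the spots overlap, and the differences were -0.56 ± 0.25 in liver and 0.24 ± 0.20 in kidney. The 2 iron-sufficient liver spots both lay in noisy blocks, so that no value was left without those blocks, and the liver sign turned to 0.02 under the median scaling and to 0.07 under another background correction. FAO cells were near the lower end of detection, with 39.6 and 40.2 in deferoxamine FAO against 49.35 and 49.97 in untreated FAO, a difference of -0.32 ± 1.16.

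Catalase itself was slightly lower in all 3 iron-deprived samples, within its spot error. Its spots read 1286 and 1361 in deferoxamine FAO against 1652 and 1376 in untreated FAO, and 6056 and 6006 in iron-free liver against 6270 and 7735 in iron-sufficient liver. In kidney they read 2263 and 2673 with the iron-free diet against 2534 and 2757 with the iron-sufficient diet. Spots separated in FAO and liver, by narrow gaps, and overlapped in kidney. The differences were -0.19 ± 0.27, -0.21 ± 0.25 and -0.10 ± 0.18 in FAO, liver and kidney, and those of liver and kidney turned to 0.37 and 0.10 under the median scaling.

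Gpx1, the cytosolic glutathione peroxidase, had the largest difference of the 10 genes under the iron-free diet. Its probe is printed 10 times per array. In iron-free liver the 10 spots ran from 82231 to 95535 with a mean of 88574, against 131390 to 354141 with a mean of 173162 over the 9 usable spots of iron-sufficient liver. All iron-free spots thus lay below all iron-sufficient ones, and the difference was -0.97 ± 0.12, or 1.96-fold lower, just inside the 2-fold threshold. Of all 10428 genes measured in this comparison, 3.13% had a larger decrease. The highest of the iron-sufficient spots lay in a noisy block, and without such blocks the difference was -0.82. It was -1.02 in the authors' deposited log2 values, and it stayed below 0 under all 9 other settings that give a value for it, between -1.04 and -0.39, the last under the median scaling.

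In kidney, the same probe ran from 50317 to 59460 with the iron-free diet against 57573 to 84340 with the iron-sufficient diet, and these ranges overlap. The difference was -0.25 ± 0.09, and -0.17 without noisy blocks. It ran from -0.25 to -0.04 under the other settings. In FAO cells Gpx1 ran from 1115 to 1451 with deferoxamine against 1069 to 1159 untreated, overlapping again, with a difference of 0.20 ± 0.12. The liver and kidney differences therefore shared a sign that FAO cells did not, but no replicate of any sample bears on that contrast.

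Gpx3, the plasma glutathione peroxidase, had differences below 0 in all 3 comparisons, but those of liver and FAO cells lay within their spot error. In kidney, where it was brightest, its spots gave 34635 and 34045 with the iron-free diet against 48032 and 51626 with the iron-sufficient diet. They did not overlap, and the difference was -0.54 ± 0.20, or 1.45-fold lower, with a range of -0.61 to -0.33 under the other settings. Of the 9092 genes measured in kidney, 5.76% had a larger decrease. Liver gave 62.7 and 67.0 with the iron-free diet against 96.0 and 81.5 with the iron-sufficient diet, a difference of -0.45 ± 0.63 that turned to 0.13 under the median scaling. FAO cells gave 25.5 and 26.6 with deferoxamine, of which 1 spot was not well above background, against 50.7 and 48.3 untreated. The FAO difference was -0.93 ± 1.22, or 1.90-fold lower, and is a bound because the deferoxamine signal counted as not well above background. Normexp background correction put that FAO difference at -0.36.

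Gpx4, which reduces lipid peroxides in membranes, differed little. The brighter probe gave 32706 and 39074 in deferoxamine FAO against 35046 and 26511 in untreated FAO, and 66705 and 59993 in iron-free liver against 97690 and 48313 in iron-sufficient liver. In kidney it gave 94579 and 86278 with the iron-free diet against 89709 and 75932 with the iron-sufficient diet. Spots overlapped in all 3 comparisons, and the differences were 0.23 ± 0.15, -0.12 ± 0.27 and 0.13 ± 0.20 in FAO, liver and kidney. The second probe, with 1 spot per array, gave the opposite sign each time, at -0.15 ± 0.21, 0.30 ± 0.38 and -0.11 ± 0.29. No direction can therefore be given for Gpx4.

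The peroxiredoxins followed no common pattern. Prdx1, of the cytosol, gave 15728 and 14305 in deferoxamine FAO against 14505 and 13997 in untreated FAO, and 26290 and 24448 in iron-free liver against 27263 and 38787 in iron-sufficient liver. In kidney it gave 11784 and 12156 with the iron-free diet against 13964 and 16868 with the iron-sufficient diet. The spots overlapped in FAO cells and separated in both tissues. The differences were 0.07 ± 0.15, -0.36 ± 0.27 and -0.36 ± 0.20 in FAO, liver and kidney. Leaving out the noisy block that held 1 iron-sufficient liver spot brought the liver value to -0.08, and the median scaling turned it to 0.22.

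Prdx3, the mitochondrial peroxiredoxin, gave 9064 and 10030 in deferoxamine FAO against 12118 and 11285 in untreated FAO, which do not overlap. It gave 2861 and 2738 in iron-free liver against 3062 and 2268 in iron-sufficient liver, which overlap, and 5162 and 5147 in iron-free kidney against 5582 and 6165 in iron-sufficient kidney, which do not. The differences were -0.29 ± 0.15, 0.09 ± 0.27 and -0.19 ± 0.25 in FAO, liver and kidney, and the kidney value turned to 0.02 under the median scaling. Prdx6, which works with a single active cysteine, gave 3076 and 3089 in deferoxamine FAO against 3202 and 3492 in untreated FAO. It gave 5360 and 5091 in iron-free liver against 5128 and 5426 in iron-sufficient liver, and 4079 and 3836 in iron-free kidney against 4250 and 4598 in iron-sufficient kidney. Its differences were -0.12 ± 0.17, -0.01 ± 0.25 and -0.16 ± 0.25, and it was the steadiest of the 10 genes over the 6 arrays.

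**Figure D2:**
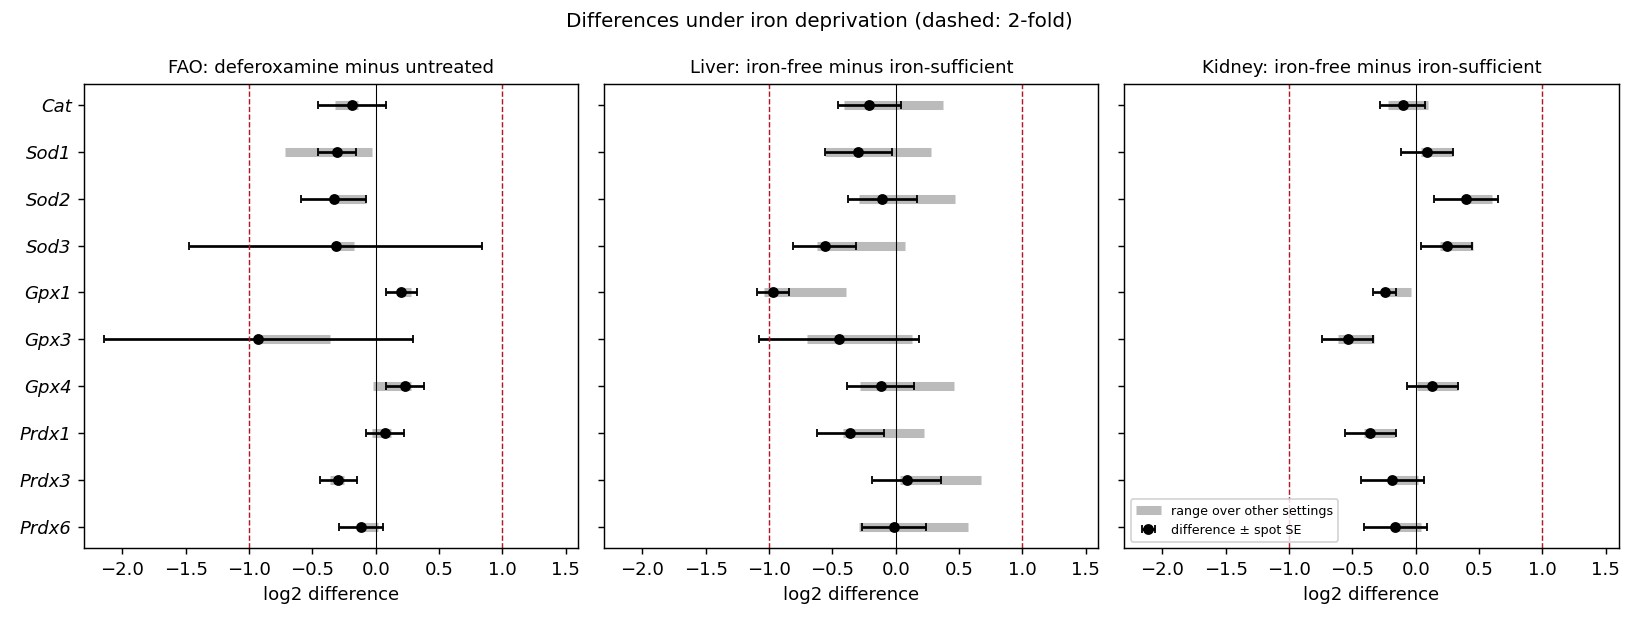
Log2 difference (iron-deprived minus control) of the 10 genes in FAO cells, liver and kidney; points with bars are the value ± spot SE, grey bands the range over the other settings, dashed lines 2-fold. No point passes 2-fold, Gpx1 in liver lies at -0.97, and 8 of the 10 liver bands reach both sides of 0. The median scaling, which moves all liver values upwards, turned the sign for each of these 8. Sod3, Prdx1, Gpx4 and Prdx6 also turned under a further setting.

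None of the 10 genes reached 2-fold in deferoxamine FAO, where 4.03% of 10742 genes were called higher and 6.41% lower. None reached it in iron-free liver, where 6.36% of 10428 genes were called higher and 2.93% lower, and none in iron-free kidney, where 3.06% of 9092 genes were called higher and 1.24% lower. Under the median scaling 20.3% of genes were called higher and 0.748% lower in liver, and 4.42% and 0.869% in kidney, with the members still at 0 calls. Spots failed to overlap for 7 of 10 genes in FAO, 6 of 10 in liver and 5 of 10 in kidney, against 72.8%, 65.9% and 62.8% of all genes. These shares are near the background and say nothing particular about the members.

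The median difference of the 10 genes was -0.24 in FAO, -0.25 in liver and -0.13 in kidney, against 0.03, 0.01 and -0.03 over all genes. Of the 10, 7 were below 0 in FAO, 9 in liver and 6 in kidney, against 46.8%, 46.8% and 54.2% of all genes. Under the median scaling the liver median of the members became 0.33 while that of all genes became 0.59. The members' median relative to that of all genes in liver was -0.26 in the setting reported, -0.19 under quantile normalization and under normexp background correction, -0.11 without noisy blocks and -0.10 without the filter on dim probes. Cat, Gpx3 and Prdx6 were below 0 in all 3 comparisons, although the signs of Cat and Prdx6 in liver and kidney and of Gpx3 in liver turned under the median scaling, and that of Prdx6 also in FAO under normexp and in liver without noisy blocks.

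The members differed far more between the sources of RNA than with iron. Set beside iron-sufficient kidney, iron-sufficient liver was at least 2-fold higher for 3 genes, where 14.1% of 9818 genes were called, and at least 2-fold lower for 3, where 25.3% were called. With the 75th percentile over all probes, 19.2% of genes were called higher and 20.4% lower. Gpx3 was 563-fold lower in liver than in kidney, at 88.5 against 49797 (log2 -9.14 ± 0.50), and 0.183% of all genes lay lower still. Normexp background correction put this Gpx3 difference at -7.79. Sod3 was also lower in liver, at 4481 against 19279 in kidney (-2.11 ± 0.28), as was Prdx3, at 2635 against 5866 (-1.15 ± 0.34). Prdx3 lost its call under the median scaling, at -0.72, with the 75th percentile over all probes, at -0.85, and in the authors' deposited log2 values, at -0.84.

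The 3 genes higher in liver were Gpx1, at 173162 against 65247 in kidney (1.41 ± 0.14), Cat, at 6964 against 2643 (1.40 ± 0.28), and Prdx1, at 32519 against 15347 (1.08 ± 0.29). The calls of Gpx1 and Prdx1 were lost under quantile normalization, at 0.82 and 0.84, and that of Prdx1 also without noisy blocks, at 0.83, and under normexp background correction, at 0.82. Sod1 (0.78 ± 0.29), Prdx6 (0.25 ± 0.33), Gpx4 (-0.26 ± 0.29) and Sod2 (-0.56 ± 0.34) stayed inside 2-fold in the setting reported. Sod1 passed 2-fold with the 75th percentile over all probes, at 1.08, in the authors' deposited log2 values, at 1.09, under the median scaling, at 1.21, and, just, under normexp. Spots of the 2 tissues did not overlap for 8 of 10 genes, against 82.0% of all genes.

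FAO cells carried much less of most members than liver. Untreated FAO was at least 2-fold lower than iron-sufficient liver for 7 of 10 genes, where 26.2% of 11235 genes were called lower, and higher for 1, where 26.1% were called higher. Under the median scaling 40.5% of genes were called higher and 19.8% lower. Gpx1 was 157-fold lower, at 1106 in untreated FAO against 173162 in liver (-7.29 ± 0.13), and Sod3 90.2-fold lower, at 49.7 against 4481 (-6.50 ± 0.86). Larger decreases were found for 1.42% and 2.02% of genes, and normexp put the Sod3 difference at -5.16. Cat, at 1508 in untreated FAO against 6964 in liver, was lower by a log2 difference of -2.21 ± 0.25. Sod2 (-1.44 ± 0.28), Sod1 (-1.42 ± 0.27), Prdx1 (-1.19 ± 0.27) and Gpx4 (-1.17 ± 0.27) followed.

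The exception was mitochondrial Prdx3, at 11694 in untreated FAO against 2635 in iron-sufficient liver, 4.44-fold higher (2.15 ± 0.27). Prdx6 (-0.66 ± 0.25) and Gpx3 (-0.84 ± 0.96) stayed inside 2-fold in the setting reported, and Gpx3 passed it under normexp, at -1.44. The calls of Gpx1, Sod3, Cat and Prdx3 held under every other setting that gives a value, while the count of calls was 4 under the median scaling and 5 under quantile normalization. Under the median scaling the calls of Sod1 (-0.84), Sod2 (-0.86), Prdx1 (-0.61) and Gpx4 (-0.59) were lost. Spots failed to overlap for all 10 genes, against 88.8% of all genes.

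**Figure D3:**
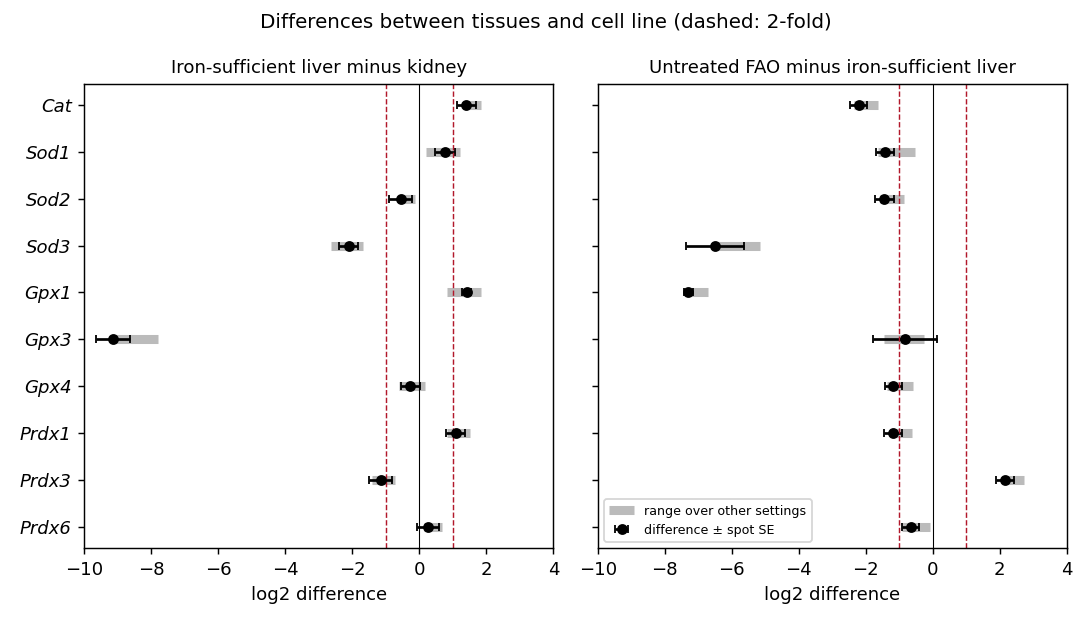
Log2 difference of the 10 genes between iron-sufficient liver and kidney, and between untreated FAO and iron-sufficient liver; points with bars are the value ± spot SE, grey bands the range over the other settings, dashed lines 2-fold. Gpx3 lies at -9.14 in the first panel, and Gpx1 and Sod3 lie at -7.29 and -6.50 in the second.

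In the order of the 6 levels, diet neighbours mostly stood together. For Cat the order was iron-sufficient liver, iron-free liver, iron-sufficient kidney, iron-free kidney, untreated FAO and deferoxamine FAO, and only the steps from liver to kidney and from kidney to FAO exceeded 2 spot standard errors. For Gpx1 the order was iron-sufficient liver, iron-free liver, iron-sufficient kidney, iron-free kidney, deferoxamine FAO and untreated FAO, and every step but the last exceeded them. For Gpx3 it was iron-sufficient kidney, iron-free kidney, iron-sufficient liver, iron-free liver, untreated FAO and deferoxamine FAO, and only the first 2 steps did. The remaining 7 genes are given by their range over the arrays: 572-fold for Sod3, 6.64-fold for Sod2, 4.44-fold for Prdx3, 3.30-fold for Sod1, 2.96-fold for Gpx4, 2.72-fold for Prdx1 and 1.71-fold for Prdx6.

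Among 6471 genes detected clearly above background in all 6 samples, those with log2 levels most like Cat were Lrp3, Snapc5 and RT1-Cl (Pearson r 0.999, 0.999 and 0.998 over 6 arrays). For Gpx1 they were Actc1, Arhgef7 and Acadm (0.999, 0.998 and 0.998), the last an enzyme of mitochondrial fatty acid oxidation. For Gpx3 they were Afg1l, Atp5po and Gclc (0.999, 0.999 and 0.998), the last the catalytic subunit of an enzyme of glutathione synthesis. Gclc gave 78072 in iron-free kidney and 80585 in iron-sufficient kidney, against 3377 to 4735 on the other 4 arrays. The 6 points form 3 pairs by tissue or cell line, so these values mainly describe differences between sources. Between members, the closest pair was Sod2 and Sod3 (r 0.991), followed by Sod3 and Gpx4 (0.990).

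The other genes of peroxide handling were read from 8 lists chosen by function. Their calls are those of the setting reported, and their values under the other scalings are not given. The median scaling moved the liver median over all genes from 0.01 to 0.59, so liver calls near 2-fold depend on the scaling. Over all genes, 4.03% were called higher and 6.41% lower in FAO, 6.36% and 2.93% in liver, and 3.06% and 1.24% in kidney. Of 8 further glutathione peroxidases and peroxiredoxins, 4 were measured in FAO, 6 in liver and 5 in kidney, and the median differences were -0.04, 0.20 and -0.02. The 1 call was Gpx8, of the endoplasmic reticulum, with 4.26 in deferoxamine FAO, not well above background, against 78.2 in untreated FAO, at least 3.88-fold lower. The thioredoxin and sulfiredoxin list, which recycles peroxiredoxins, had 8 of 10 genes measured in each comparison, with medians of -0.42 in FAO, 0.01 in liver and -0.04 in kidney. Its 1 call, thioredoxin reductase Txnrd1 in FAO at 277 with deferoxamine against 1617 untreated (-2.54 ± 0.51), rested on a spot in a noisy block. Without noisy blocks it was -0.28, and a second Txnrd1 probe gave -0.08.

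Glutathione and NADPH supply had 14 of 15 genes measured in FAO, 12 in liver and 13 in kidney, with medians of -0.21, -0.06 and 0.02. In FAO, 2 were called lower: isocitrate dehydrogenase Idh1, at 2575 with deferoxamine against 5341 untreated (-1.05 ± 0.17), and glutaredoxin Glrx, at 207 against 423 (-1.03 ± 0.23). In liver, glutathione synthetase Gss was called higher, at 1013 with the iron-free diet against 504 with the iron-sufficient diet (1.01 ± 0.27), and malic enzyme Me1 lower, at 1990 against 4307 (-1.11 ± 0.13). Me1 missed the threshold without noisy blocks, at -0.95, and its second probe gave -1.91. Gss, Idh1 and Glrx lay only just past the threshold, so that a small shift in scaling would undo their calls.

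Selenoprotein synthesis and selenium transport, on which Gpx1, Gpx3 and Gpx4 depend, had 8 of 9 genes measured in each comparison, with medians of -0.34 in FAO, -0.27 in liver and -0.19 in kidney. The 1 call was Selenop, the selenium carrier made by hepatocytes, at 225 in deferoxamine FAO against 877 in untreated FAO (-1.96 ± 0.51). In liver Selenop gave 43308 with the iron-free diet against 56199 with the iron-sufficient diet (-0.38 ± 0.27), inside 2-fold. The copper and manganese delivery list, which serves the superoxide dismutases, had no call among 8 genes measured in FAO, 9 in liver and 6 in kidney, and medians of 0.04, -0.02 and 0.09.

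Peroxisome assembly, which catalase needs to reach its organelle, had 15 genes measured in FAO, 14 in liver and 13 in kidney, with medians of -0.09, -0.15 and -0.15. Pex13 was called higher in FAO, at 515 with deferoxamine against 216 untreated (1.25 ± 0.27). Pex11a, which promotes peroxisome division, was called lower in liver, at 1538 with the iron-free diet against 5064 with the iron-sufficient diet (-1.72 ± 0.36, 1 spot per array). The oxidases that make hydrogen peroxide or superoxide had 3 of 10 measured genes called lower in FAO and 1 of 14 in liver. Over all genes 6.41% and 2.93% were called lower. The medians of the oxidases were -0.30 and -0.34. The 2 largest in FAO were the hydroxyacid oxidases Hao2, at 54.3 with deferoxamine against 293 untreated (-2.43 ± 0.82), and Hao1, at 40.7 against 133 (-1.71 ± 0.83). Hao1 was also called lower in liver, at 2636 with the iron-free diet against 5554 with the iron-sufficient diet (-1.08 ± 0.25). Kidney had no call in any of the 8 lists, with 8 oxidases measured and a median of -0.22, and other heme peroxidases had 1 of 5 genes measured and no call in each comparison.

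**Figure D4:**
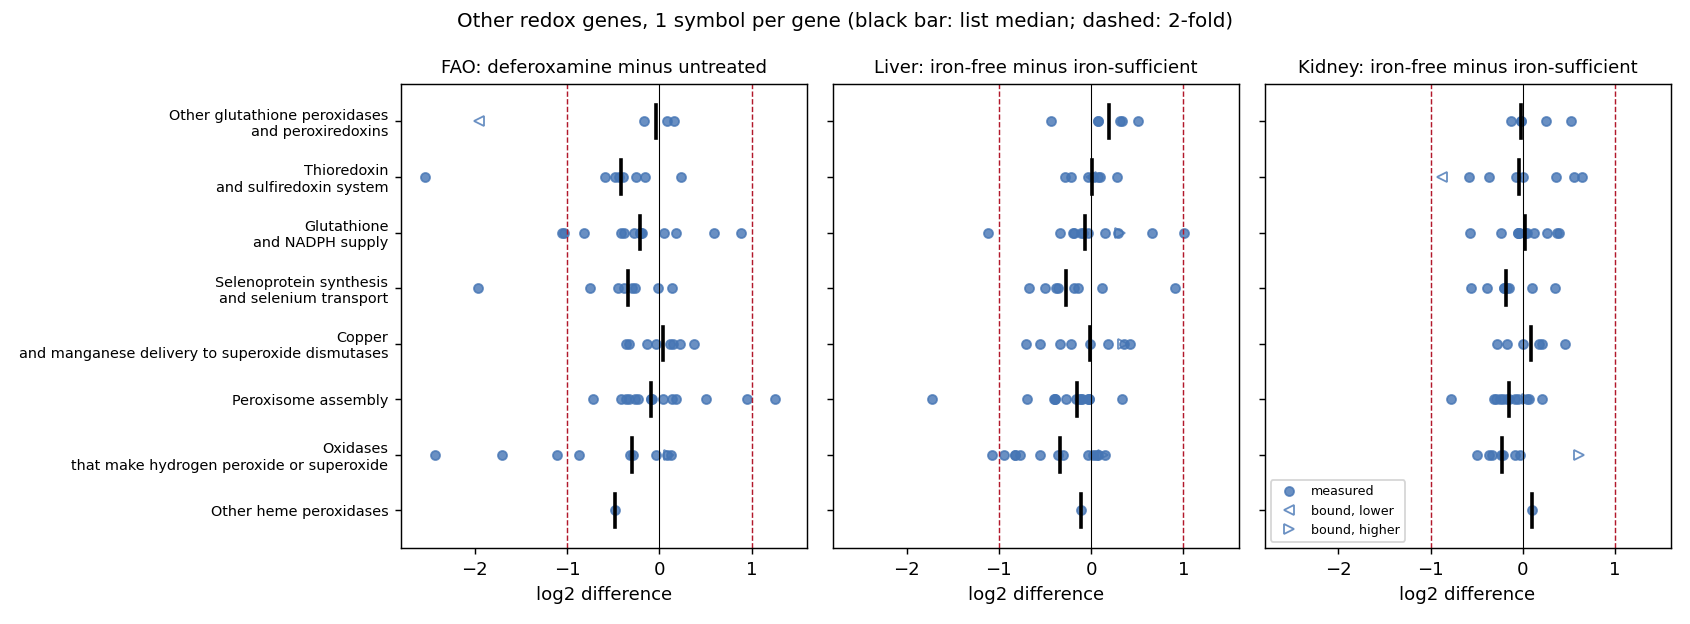
Log2 difference (iron-deprived minus control) of the measured genes of the 8 lists in FAO cells, liver and kidney; each point is a gene, triangles are bounds, black bars list medians and dashed lines 2-fold. Calls lie in the FAO and liver panels and none in the kidney panel, where the list medians run from -0.22 to 0.09.

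Markers of other cell types were read beside these values. Over all genes, 6.36% were called higher in liver and 3.06% in kidney. In FAO 4.03% were called higher and 6.41% lower. Of 10 erythroid markers, 8 were measured in liver and 6 were called higher with the iron-free diet, with a median difference of 1.75 and a summed signal of 436206 against 329630 with the iron-sufficient diet. Hbb was among the 6 at 1.71, while its second probe gave 0.47. In kidney 7 were measured and 2 called higher, Ahsp at 3.49 and Hbb at 1.18, while the second Hbb probe gave -0.13. The summed signal in kidney was 246447 with the iron-free diet against 235894 with the iron-sufficient diet. Hba-a1, whose signal is part of the liver and kidney sums, was not called. It gave 288019 against 285193 in liver (0.01) and 173313 against 203233 in kidney (-0.23). Of the 10 erythroid markers, 2 were not well above background on either liver array and 3 on either kidney array. Macrophage and neutrophil markers were measured for all 9 genes in liver, with a median difference of 0.26 and a summed signal of 27077 against 22811. Of the 9, 2 were called higher, S100a8 and S100a9, and S100a8 was not well above background with the iron-sufficient diet. Adgre1 (-0.28) and Csf1r (-0.33) were lower, and the rest were above 0, all inside 2-fold. In deferoxamine FAO 1 of 4 measured erythroid markers was called higher, Ahsp, at 104 against 14.4 in untreated FAO. The untreated signal was not well above background, so the difference is a bound. A second Ahsp probe was not well above background on either FAO array. Of 3 measured macrophage and neutrophil markers, 1 was called higher, Cd14. Of 6 hepatocyte markers in FAO, 1 was called lower, Ttr, at -1.67, a call lost without noisy blocks, at -0.65. Of the 6 hepatocyte markers in liver, 1 was called higher, Apoa1, and of the 7 kidney markers in kidney, none was called. Red cells and their precursors are rich in catalase and peroxiredoxins, and the part of these markers in the members' values was not tested.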

How the data were processed

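Per the file headers, the authors obtained each spot's intensity from Agilent Feature Extraction 10.7.3.1; the headers name rn4 and design 028279. The deposited intensity, background-subtracted on a linear scale, was log2-transformed here after outlier spots had been left out, averaged over a probe's spots and scaled to a 75th percentile over the 9091 probes that every array detected clearly. The authors' deposited log2 values served as an alternative. Columns were identified by position and by the file names in the header. A gene took its brightest probe. Spot errors were pooled over 20 signal bins per array. A probe not well above background on 1 array received a bound. Blocks of 16 by 16 spots were called noisy from probes with 10 spots. Each group had 1 array, so differences were called by size (2-fold) without a test, which the number of arrays limits. Calling was checked on simulated data. All 10 genes were described. From each list, up to 2 called genes per comparison were named, and for Cat, Gpx1 and Gpx3 the 3 genes with the highest r. The genes and lists were chosen with earlier results of these data known. The planned normexp correction (limma 3.58.1, R 4.3.3, offset 50) used the median signal, in place of the mean signal. Python 3.11.15, numpy 2.4.6 and pandas 2.3.3 were used.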

Additional observations from a re-analysis of the deposited data

Results flagged for a closer look

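Sod3 was flagged for a diet difference of opposite signs in the 2 tissues, -0.56 in liver and 0.24 in kidney (log2, iron-free minus iron-sufficient). Its spots did not overlap in either. The difference between the tissues was not tested, since each group had 1 array. The liver sign turned to 0.02 under the median scaling and to 0.07 under normexp background correction, so the signs were not opposite there, and both iron-sufficient liver spots lay in noisy blocks. Opposite signs were not particular to Sod3. Sod1, Sod2, Gpx4 and Prdx3 had them too, with spots that overlapped in liver, kidney or both. Over all genes, spots failed to overlap for 65.9% in liver and 62.8% in kidney.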

How the results depend on the processing

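The alternatives were 3 other scalings, normexp background correction, the authors' deposited log2 values, all probes of a gene, no filter on dim probes, noisy blocks left out, outlier spots kept and a 1.5-fold threshold. No called value of a member changed sign. In FAO cells the count of members called became 1 (Gpx3, a bound) at 1.5-fold, and their median became -0.06 under normexp. In liver the count became 1 (Gpx1) with the 75th percentile over all probes, under normexp, in the authors' log2 values and at 1.5-fold, and the median became 0.33 under the median scaling. Between untreated FAO and iron-sufficient liver the count became 4 under the median scaling and 5 under quantile normalization. Over all genes, the median scaling gave 2120 higher and 78 lower in liver, against 663 and 306 in the setting reported, 402 and 79 in kidney, against 278 and 113, and 4545 and 2230 between FAO and liver, against 2930 and 2948. Normexp gave 368 and 175 in liver, 187 and 71 in kidney and 1670 and 3222 between FAO and liver. Between iron-sufficient liver and kidney, 14.1% of genes were called higher and 25.3% lower in the setting reported, against 22.1% and 18.7% under the median scaling and 10.0% and 32.2% without the filter on dim probes. Without that filter there were also 3628 and 9869 between FAO and liver, 1202 and 1642 in FAO, 1437 and 1769 in liver and 878 and 730 in kidney. Leaving out noisy blocks gave 434 and 378 in FAO, against 433 and 689. At 1.5-fold there were 1132 and 1253 in FAO, 1481 and 960 in liver and 655 and 436 in kidney. The signs of the members held under every alternative for 7 of 10 in FAO, 2 of 10 in liver and 7 of 10 in kidney. The cause of these shifts was not tested. No paired analysis was possible because each group had 1 array of pooled RNA. Signals near background, as for Sod3 and Gpx3 in FAO cells, limit what a difference can show.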
